A study of Mus musculus with 3 samples.

Results

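The cytosolic and mitochondrial heat shock chaperones were followed through the liver cells of 3 single-cell libraries. The genes were Hspa1a, Hspa1b, Hspa8, Hsp90aa1, Hsp90ab1, Hspb1, Dnajb1, Hspd1, Hspe1 and Hsph1. They were chosen by name, as 10 of the 19091 genes in the count tables, and all 10 had counts in the cells of each library. A day after injury Hsp90aa1, the stress-inducible cytosolic Hsp90, was at 0.408 of its control level over all cells (interval 0.385 to 0.431). It was lower in 7 of 7 cell classes that could be compared, with an interval under 1 in 6 of them. In the library taken 7 days after injury the classes parted: summed over the 10 genes, endothelial-like cells were at 1.68 times control and neutrophil-like cells at 0.440 times control. The classical heat-inducible Hspa1a, Hspa1b and Dnajb1 each stayed at or under 97.9 UMIs per 1000000 in every class and library in which they were read.

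Heat shock chaperones bind unfolded protein and return it to its fold. Hspa8 and Hsp90ab1 do so in unstressed cells, whereas Hspa1a, Hspa1b, Hsp90aa1, Dnajb1, Hspb1 and Hsph1 are classical targets of heat shock factor 1, which binds arrays of inverted nGAAn units upstream of its genes. Dnajb1 is a J-domain protein that hands clients to Hsp70, Hsph1 is a nucleotide exchange factor that lets Hsp70 release them, and Hspb1 is a small heat shock protein that holds unfolded protein. Hspd1 and Hspe1 form the folding chamber and the lid of mitochondria. Liver cells that are minced and digested warm can also switch on such genes during the preparation.

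The study compared adult C57BL/6 liver after irreversible electroporation (IRE), which kills cells within a confined area by electric pulses, with control liver. IRE consisted of 8 pulses of 50 ms at 75 V per the labels, and tissue was taken 1 day or 7 days post-injury (p.i.), here called day 1 and day 7. The control is labelled as sham surgery with tissue taken after 1 day, while the methods speak of the uninjured equivalent area of control livers and give another voltage. Each of the 3 libraries was pooled from 3 livers, so that there was 1 library per condition, no replicate check and no test across animals. Levels are given as CPM, the unique molecular identifiers (UMIs, each standing for 1 captured transcript end) of a gene per 1000000 UMIs of the same cells. Intervals are at 95% and cover counting error only. They are exact Poisson intervals for levels and conditional binomial intervals for ratios of levels.

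Barcodes with at least 200 detected genes were taken as cells, which gave 10386 control cells, 9253 cells at day 1 and 5624 cells at day 7, with 8013800, 6107866 and 3058967 UMIs. Median depth per cell was 595, 509 and 456.5 UMIs. The labels put an estimated 1000 cells into the amplified material of a library, fewer than the barcodes with at least 200 genes in each table, and the nature of the surplus was not tested. Pairs of libraries shared 44 to 149 cell barcodes. Cell classes were gated on marker genes, and the ending -like marks them as rebuilt. The gates placed 48.5% of control cells, 27.9% at day 1 and 36.5% at day 7 in a class. A class was used in a library where it held at least 50 cells, where markers kept out of the gate were highest in it, and where markers of other classes did not outnumber its own among its 10 leading genes. In control 11 classes passed, 7 at day 1 and 6 at day 7. Monocyte-like cells at day 1 (52 cells) failed, since immunoglobulin and haemoglobin genes led them. Cells called neutrophil-like were led by Camp and Ngp in each library. Cells of the Arg1/Ccl2 myeloid-like class were led by Mmp12, Npy and Gpnmb in control and by Ppbp, Ccl7 and Arg1 at day 7. Barcodes under 200 genes are called free RNA below, as a name only. Their median depth was 295 UMIs in control, 267 UMIs at day 1 and 215 UMIs at day 7. The neutrophil transcripts S100a8 and S100a9 took 8.08% of their UMIs at day 7, beside 3.53% in cells. Whether these barcodes held free RNA or shallow cells was not tested.

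The libraries also differed in ways that move with any ratio to control. Mitochondrial transcripts took 20.5% of UMIs in control cells, 21.7% at day 1 and 4.10% at day 7. All 14 hepatocyte markers of the gate were detected in each library, and together they took 0.200%, 3.31% and 0.0432% of UMIs. Outside hepatocyte-like cells they reached at most 1.74% of the UMIs of a class at day 1. The 14 immediate early genes, which digestion of tissue is known to induce, summed to 1716 CPM in control, 1192 CPM at day 1 and 5513 CPM at day 7, and none was at 0. The part of these shares in the results below was not tested. Without mitochondrial genes in the denominator, every ratio at day 7 over all cells was lower by 0.27 on the log2 scale, and at day 1 the shift was 0.02.

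The RefSeq promoter table (GRCm38.p6, 250 bases before to 50 after each start) held 7 of the 10 genes, and short stretches are printed here because they hold the letters that heat shock factor 1 is known to bind. The first pair is given to show that the Hspa1a and Hspa1b stretches have the same letters, and the last because 1 element lies upstream of a pair of genes. Capitals mark GAANNTTC, an inverted pair of units, or the longer heat shock element.
Hspa1a, chr17:34972242-34972271, minus strand: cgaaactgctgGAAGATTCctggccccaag
Hspa1b, chr17:34959324-34959353, minus strand: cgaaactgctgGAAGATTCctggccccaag
Hspb1, chr5:135887801-135887830, plus strand: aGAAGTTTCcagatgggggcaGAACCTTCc
Hspe1, chr1:55088053-55088082, plus strand: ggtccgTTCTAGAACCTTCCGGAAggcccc

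GAANNTTC lay 104 to 97 bases before the start in both Hspa1a and Hspa1b, whose windows were identical at 296 of 300 bases. GAANNTTC was found in 7.86% of the 32851 promoters and TTCNNGAA in 8.52%, and both read the same on either strand. Hspb1 held 2 copies of GAANNTTC within 117 to 90 bases before the start. Hspe1 and Hspd1 are transcribed away from each other, and the capitals in the Hspe1 stretch are also the element of the second Hspd1 entry. They lie 89 to 72 bases before the Hspe1 start and 144 to 127 bases before that Hspd1 start. The element of 3 alternating units, TTCNNGAANNTTC or its complement GAANNTTCNNGAA, contains both shorter pairs and was present on either strand in 0.603% of promoters. In Hsph1 it began 37 or 16 bases after the start, depending on the entry. None of these letters was found in the 2 windows of Dnajb1. For correlations, points of class and library were used where the class held at least 50000 UMIs. This left out endothelial- and T cell-like cells at day 7, NK cell-like cells at day 1 and plasmacytoid dendritic cell-like cells in control. Over the 20 points left, log2 levels of Hspd1 and Hspe1 had a Pearson r of 0.879 and those of Hspa1a and Hspa1b one of 0.274. Hspe1 and Hsp90ab1, a gene without a promoter entry, had one of 0.821. Hspa1a and Hspa1b had few UMIs at most points, which limits their r. A link between r and the promoter letters was not tested. These points share libraries and depth, so that r is a description.

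Over all cells, the 10 genes summed to 5455 CPM in control (interval 5404 to 5507), 3921 CPM at day 1 (3872 to 3971) and 4651 CPM at day 7 (4575 to 4728). Both injured libraries were lower than control, at ratios of 0.719 (interval 0.708 to 0.730) and 0.853 (0.837 to 0.869). A gene counted as past the threshold at 1.5-fold, among genes with at least 50 UMIs in both libraries together, with 0.5 UMIs added to each side. On day 1, 0 of the 10 genes were 1.5-fold higher, against 20.5% of 11357 genes, and 3 were 1.5-fold lower, against 13.6%. On day 7, 1 gene was higher, against 17.0% of 10227 genes, and 2 were lower, against 33.1%. No gene of the 10 was 2-fold higher at either time, where 12.2% and 8.81% of all genes were. The median log2 ratio of the 10 genes was -0.48 at day 1 beside 0.04 for all genes. At day 7 it was -0.26 beside -0.20. Set against the median gene, the sum was at 0.697 of control at day 1 and at 0.981 at day 7.

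**Figure D1:**
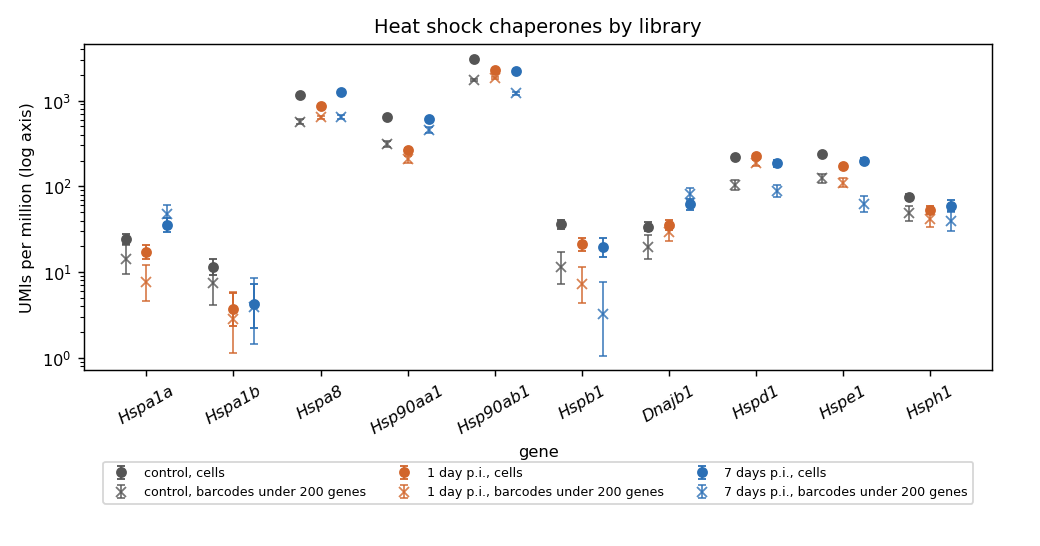
Level of each of the 10 chaperone genes in UMIs per 1000000 (log axis) in control, day 1 and day 7; dots are cells, crosses are barcodes under 200 genes and bars are exact Poisson intervals. Hsp90aa1 shows the widest gap between control (648 CPM) and day 1 (264 CPM) among the genes over 100 CPM.

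The constitutive pair came first in UMIs. Hsp90ab1, the constitutive cytosolic Hsp90, was at 3025 CPM in control, 2274 CPM at day 1 and 2222 CPM at day 7. Both injured libraries were lower, at 0.752 (interval 0.736 to 0.768) and 0.735 (0.715 to 0.755) of control. Hspa8, the constitutive Hsp70, was at 1147, 854 and 1266 CPM in the same order. It was at 0.745 of control at day 1 and 1.10 times control at day 7. The latter direction turned without mitochondrial genes in the denominator, to 0.915, and relative to the median gene it was 1.27. Hsp90aa1 was at 648, 264 and 602 CPM, which placed the library at day 1 far below the other two. Its ratio at day 7 was 0.930 (interval 0.882 to 0.981), and 1.07 relative to the median gene.

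The mitochondrial members had different ratios at day 1. Hspd1 was at 218 CPM in control, 228 CPM at day 1 and 185 CPM at day 7, with a ratio of 1.05 (interval 0.974 to 1.12) at day 1. Hspe1, whose window holds the same element, was at 237, 171 and 195 CPM, with a ratio of 0.722 (0.669 to 0.779) at day 1. The intervals of the pair did not overlap at that time. At day 7 their ratios were 0.848 and 0.825, with overlapping intervals, and in cells with at least 400 genes Hspe1 was at 1.00 times control. Hsph1 was at 75.5, 52.7 and 59.8 CPM, lower in both injured libraries.

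The inducible members were sparse. Hspa1a had 195 UMIs in control, 106 at day 1 and 109 at day 7, or 24.3, 17.4 and 35.6 CPM. Hspa1b had 92, 23 and 13 UMIs, or 11.5, 3.77 and 4.25 CPM. The near identical genes thus went opposite ways at day 7, at 1.46 times control (interval 1.15 to 1.86) and 0.370 of control (0.190 to 0.665). Per the file headers, reads that mapped to several places were not counted, which takes out stretches the genes share. In GENCODE M21 transcripts 58.8% of the windows of 50 bases in Hspa1a were found in Hspa1b, but 0% in the last 500 bases, the end from which Drop-seq reads come. Dnajb1 was at 33.7, 35.2 and 61.5 CPM, so that the library at day 7 was 1.82 times control (1.51 to 2.21) and the one of day 1 was not set apart. At day 7 free RNA held more of both genes than cells did, with 48.0 CPM of Hspa1a and 80.9 CPM of Dnajb1, against 14.4 and 19.8 CPM in control free RNA. Hspb1 was at 36.3, 21.1 and 19.6 CPM. In the library at day 7 a single cell outside the classes held 13 of its 60 UMIs, and without that cell the level was 15.4 CPM.

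In ratios over all UMIs, free RNA differed from the cells at day 1. Barcodes under 200 genes held 2936 CPM of the 10 genes in control, 3051 CPM at day 1 and 2636 CPM at day 7. Their ratio at day 1 was 1.04 (interval 1.00 to 1.08), where that of cells was 0.719. Hsp90aa1 was lower there too, at 0.670 of control (0.595 to 0.755), and Hspd1 was higher, at 1.81 (1.53 to 2.14). Mitochondrial transcripts took 52.7% of these UMIs in control, 38.7% at day 1 and 8.41% at day 7. In cells the share was 20.5% in control and 21.7% at day 1. The denominators thus moved differently, and the part of this in the free RNA ratios was not tested.

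In control liver the summed level spanned 2.38-fold between classes. T cell-like cells were highest at 8013 CPM (interval 7545 to 8502, 145 cells), followed by NK cell-like cells at 7025 CPM and conventional dendritic cell-like cells at 6999 CPM, which did not differ beyond counting error. Mesenchymal-like cells stood at 6245 CPM and macrophage-like cells, the resident phagocytes, at 5997 CPM, again without a difference beyond counting error. Monocyte-like cells were at 5177 CPM, plasmacytoid dendritic cell-like cells at 5102 CPM and Arg1/Ccl2 myeloid-like cells at 5043 CPM, a run of neighbours that could not be told apart. Hepatocyte-like cells at 4461 CPM and endothelial-like cells at 4434 CPM formed another such pair. Neutrophil-like cells were lowest at 3366 CPM (3128 to 3616, 308 cells), above the 2936 CPM of free RNA of the library. Cells without a class were at 5297 CPM.

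**Figure D2:**
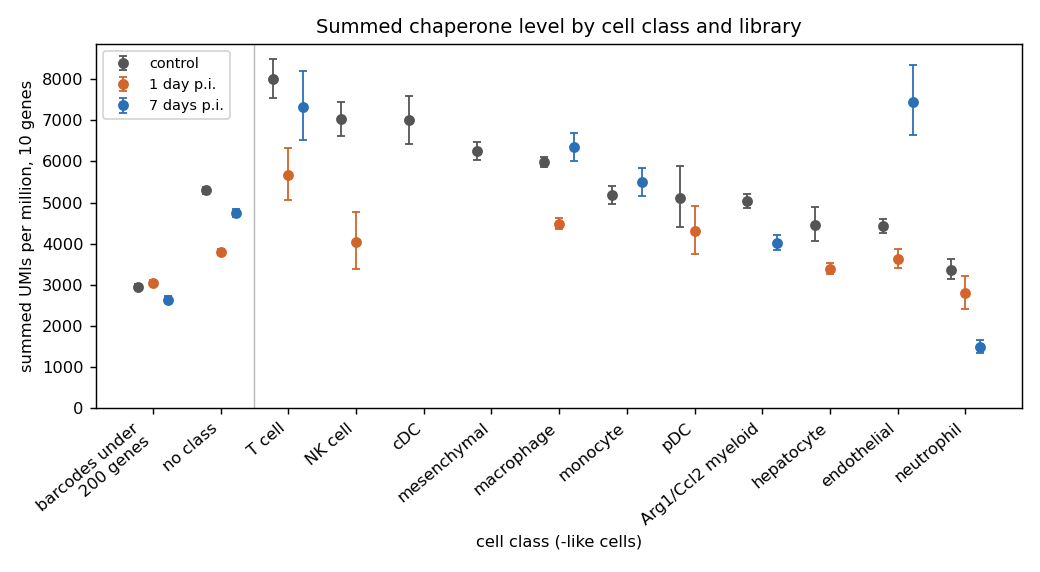
Summed UMIs per 1000000 of the 10 genes by cell class and library, with exact Poisson intervals as bars; classes are ordered by the control level, and barcodes under 200 genes and cells without a class stand on the left. All 7 classes read at day 1 lie below their control value, whereas at day 7 endothelial-like cells lie above it and neutrophil-like cells below it.

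Single members ordered the classes differently. Hsp90aa1 was highest in T cell-like cells (1231 CPM) and NK cell-like cells (1076 CPM) and lowest in endothelial-like cells (358 CPM), a range of 3.43-fold in control. Hspa8 was highest in monocyte-like cells at 1658 CPM and lowest in neutrophil-like cells at 713 CPM. Hspd1 led in hepatocyte-like cells at 423 CPM, beside 359 CPM in T cell-like cells, from which they did not differ beyond counting error, and was lowest in endothelial-like cells at 126 CPM. In the library at day 1 hepatocyte-like cells again had the most Hspd1, at 416 CPM from 372 cells.

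Hspb1 had its highest control level in mesenchymal-like cells. It reached 301 CPM (interval 255 to 354) in mesenchymal-like cells and 38.2 CPM in endothelial-like cells, the next class, a 7.90-fold difference (5.07 to 12.8). Mesenchymal-like cells made up 4.24% of control cells and held 51.5% of its UMIs. A UMI of Hspb1 was found in 100 of 440 such cells, or 22.7% (exact binomial interval 18.9 to 26.9%). In macrophage-like cells the share was 0.566%, at a median depth of 829 UMIs beside 877 UMIs. After thinning each cell to 300 UMIs the shares were 7.91% and 0.160%, with 12 and 22 shallower cells left out. Only 19 mesenchymal-like cells were found at day 1 and 5 at day 7, so that this class was not read there. In the classes read in both libraries and the unassigned cells, weighted as in control, Hspb1 was at 1.01 times control at day 1 and at 1.19 times control at day 7. These values leave out mesenchymal-like cells on both sides. At day 7 the unassigned cells alone were at 1.19 times control. Without the single cell that held 13 of the 60 UMIs of Hspb1 in that library, they were at 0.820.

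Hspa1a and Hspa1b together were thin in every class. Macrophage-like cells had 37.4 CPM in control from 60 UMIs, 30.4 CPM at day 1 from 31 UMIs and 28.3 CPM at day 7 from 6 UMIs. Hepatocyte-like cells had 0 UMIs in control, which allows up to 28.8 CPM at a floor of 3 counts, and 3 UMIs at day 1, where no ratio is given. At most 2.71% of the cells of the macrophage-like class held a UMI of Hspa1a. Conventional dendritic cell-like cells had the highest pair level in control, at 100.2 CPM, yet from 8 UMIs.

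At day 1 the summed level was lower than in control in 7 of 7 classes. Macrophage-like cells went from 5997 to 4489.8 CPM, a ratio of 0.749 (interval 0.723 to 0.776). Endothelial-like cells went from 4434 to 3634 CPM (0.819, 0.761 to 0.882). Hepatocyte-like cells went from 4461 to 3385 CPM (0.759, 0.687 to 0.840). The lymphocyte classes were lower as well. T cell-like cells were at 0.707 of control (0.622 to 0.803) and NK cell-like cells at 0.574 (0.478 to 0.686), from 60 cells. Among NK cell-like cells the median gene was also lower, and relative to it the ratio was 0.727. Neutrophil-like cells were at 0.830 (0.703 to 0.975), yet at 1.11 when every deposited barcode was kept. Plasmacytoid dendritic cell-like cells were at 0.845, with an interval that held 1.

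Hsp90aa1 was lower in each of these classes. In macrophage-like cells it was at 631 CPM in control and 288 CPM at day 1, a ratio of 0.457 (interval 0.400 to 0.521). In endothelial-like cells it was at 358 and 149.6 CPM (0.417, 0.291 to 0.585). In hepatocyte-like cells it was at 529 and 232 CPM (0.439, 0.321 to 0.607). Over the 7 classes the ratio ran from 0.217 in NK cell-like cells, with 8 UMIs at day 1, to 0.565 in neutrophil-like cells, and the median was 0.439. Over all cells 2 of the 10 genes, Hspa1b and Hsp90aa1, were 2-fold lower, where 5.80% of all genes were. Within classes only members with at least 50 UMIs in both libraries together were counted. Of these, Hsp90aa1 was the 1 gene 2-fold lower in macrophage-, endothelial-, hepatocyte- and NK cell-like cells, where 3.16%, 2.90%, 7.33% and 16.7% of all genes were. No counted member was 2-fold lower in neutrophil-, T cell- and plasmacytoid dendritic cell-like cells, where 10.4%, 9.96% and 5.76% of genes were. With fewer UMIs, and so not counted, Hsp90aa1 in plasmacytoid dendritic cell-like cells went from 725 CPM (27 UMIs) to 215 CPM (11 UMIs). Hspd1 in neutrophil-like cells, not counted either, was at 0.473 of control. The same filter of 50 UMIs was used at 1.5-fold. In macrophage-like cells 1 of the 8 genes with at least 50 UMIs, Hsp90aa1, was 1.5-fold lower, where 11.7% of 5853 genes were, and 0 were higher, against 12.5%. In endothelial-like cells it was 1 of 6, against 10.2% (0 higher, against 11.8%), and in hepatocyte-like cells 1 of 5, against 20.3% (0 higher, against 20.3%). The smaller classes gave 2 of 5 lower in T cell-like cells, against 23.7%, and 3 of 5 in NK cell-like cells, against 33.8%, with 0 higher against 8.37% and 8.99%. Of the 3 genes in neutrophil-like cells 1 was lower, against 25.8%, and 0 higher, against 12.1%. Neither of the 2 genes in plasmacytoid dendritic cell-like cells was past the threshold, against 12.6% lower and 11.5% higher. At 1.5-fold these shares lie near the background in most classes. Hsp90ab1 was lower in 7 of 7 classes too, but at ratios from 0.530 to 0.794.

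Other members varied more between classes. In macrophage-like cells Hspa1b (0.370) and Hspb1 (0.393) had lower ratios than Hsp90aa1, from 4 and 3 UMIs at day 1 and with intervals that held 1. In neutrophil-like cells Hspd1 did, at 0.473 from 5 UMIs (interval 0.145 to 1.21). Hspa8 was lower in 5 of 7 classes, with a median ratio of 0.847. In endothelial-like cells it was at 0.993 of control (interval 0.847 to 1.16). Hspd1 was lower in 6 of 7 classes and Hspe1 in 4 of 7, mostly with intervals that held 1. Dnajb1 was above control in 6 of 7 classes, at a median ratio of 1.37, but no interval left 1 out. In neutrophil-like cells Hsph1 had 1 UMI in control and 6 UMIs at day 1, too few to size the difference.

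**Figure D3:**
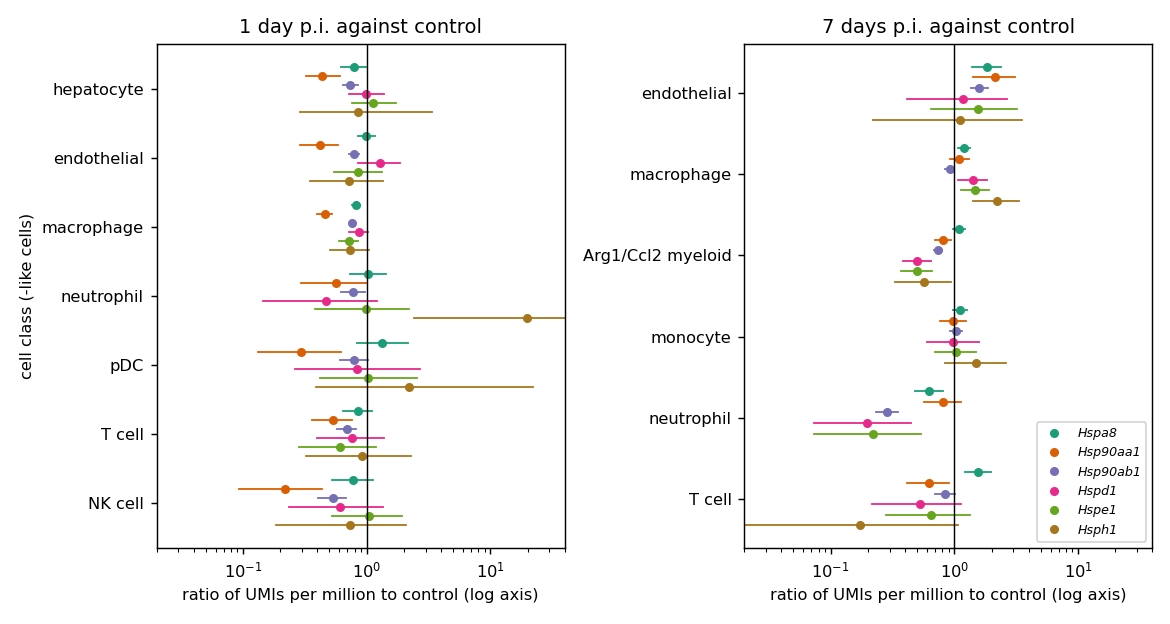
Ratio of UMIs per 1000000 to control (log axis) for Hspa8, Hsp90aa1, Hsp90ab1, Hspd1, Hspe1 and Hsph1 in each class that could be compared, at day 1 on the left and day 7 on the right; lines are conditional binomial intervals and the vertical line marks no difference. Hsp90aa1 lies left of the line in all 7 classes at day 1, from 0.217 to 0.565, and on both sides of it at day 7.

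Because the pair of cytosolic Hsp90 genes was counted in the same cells, their ratio does not depend on the denominator. Over all cells there were 0.214 Hsp90aa1 UMIs per Hsp90ab1 UMI in control (interval 0.208 to 0.221), 0.116 at day 1 (0.110 to 0.122) and 0.271 at day 7 (0.257 to 0.286). The 3 intervals did not overlap. The ratio at day 1 was below control in each of the 7 classes, for instance 0.108 beside 0.182 in macrophage-like cells and 0.138 beside 0.232 in hepatocyte-like cells. Intervals at day 1 and in control lay apart in macrophage-, endothelial- and hepatocyte-like cells. They overlapped in neutrophil-, T cell-, NK cell- and plasmacytoid dendritic cell-like cells. Neutrophil-like cells at day 7 had the highest value of any class, at 0.532 (0.389 to 0.721), beside 0.190 in control. Free RNA of that library had 0.370, and free RNA at day 1 0.114. The other classes at day 7 had intervals that overlapped those of control. T cell-like cells were at 0.209 beside 0.284 in control and monocyte-like cells at 0.196 beside 0.206, on the lower side, while macrophage-, endothelial- and Arg1/Ccl2 myeloid-like cells lay on the higher side.

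**Figure D4:**
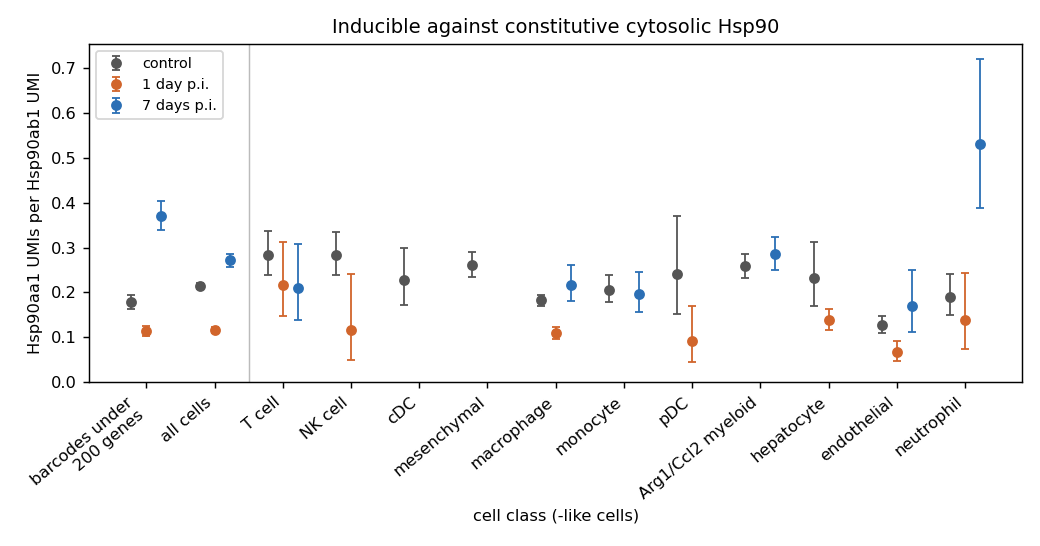
Hsp90aa1 UMIs per Hsp90ab1 UMI by cell class and library, with conditional binomial intervals as bars; barcodes under 200 genes and all cells stand on the left. Values at day 1 lie under those of control in every class read at both times, and neutrophil-like cells at day 7 stand highest at 0.532.

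Of the 6 classes read at day 7, 3 had a lower sum than control and 3 a higher one. In endothelial-like cells it was 7451 CPM beside 4434 CPM, a ratio of 1.68 (interval 1.49 to 1.89), from 69 cells with 40532 UMIs. Of the 5 genes with at least 50 UMIs there, 4 were 1.5-fold higher, where 30.7% of 2052 genes were, and 0 were lower, against 17.4%. Hsp90aa1 was at 2.13 times control (1.42 to 3.12), Hspa8 at 1.84 (1.40 to 2.40) and Hsp90ab1 at 1.59 (1.36 to 1.86). The other gene, Hspe1, was at 1.55 from 8 UMIs at day 7, with an interval that held 1 (0.644 to 3.20). Relative to the median gene Hsp90aa1 was at 1.82 and Hspa8 at 1.58. Hsp90ab1 at 1.36 and Hspe1 at 1.32 were then under 1.5-fold. Without mitochondrial genes in the denominator the sum was at 1.36, and relative to the median gene at 1.44. Immediate early genes in this class summed to 2739 CPM at day 7 and 1281 CPM in control.

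Macrophage-like cells were near control at day 7, at 6352 CPM and a ratio of 1.06 (interval 1.00 to 1.12), which turned to 0.948 without mitochondrial genes. Underneath, members went apart. Hsph1 was at 141 CPM beside 64.2 CPM (2.20, 1.41 to 3.33) and Dnajb1 at 65.9 CPM beside 23.7 CPM (2.78, 1.39 to 5.25). These were the 2 of 7 genes that were 1.5-fold higher, where 20.6% of 4604 genes were, and 0 were lower, against 16.7%. Free RNA of day 7 held 80.9 CPM of Dnajb1, more than these cells, and 39.4 CPM of Hsph1, less than these cells. In macrophage-like cells Hspe1 was at 1.48 and Hspd1 at 1.41 times control, whereas Hsp90ab1 was at 0.918 (0.846 to 0.994). Monocyte-like cells were at 5489 CPM beside 5177 CPM (1.06, 0.984 to 1.14), and at 0.872 of control without mitochondrial genes. There 1 of 6 genes, Hsph1, was at the threshold of 1.5-fold higher, against 29.1% of genes, and 0 were lower, against 13.4%.

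The Arg1/Ccl2 myeloid-like class, the largest at day 7 with 821 cells, was at 4023 CPM beside 5043 CPM in control, a ratio of 0.798 (interval 0.755 to 0.843). Its leading genes differed between control and day 7, and its median depth was 1123 UMIs in control and 550 UMIs at day 7. The part of these differences in the ratios of the class was not tested. There 3 of the 6 genes with at least 50 UMIs were 1.5-fold lower, where 23.5% of 3256 genes were, and 0 were higher, against 26.5%. The mitochondrial folding pair had like ratios. Hspd1 was at 0.499 of control (0.382 to 0.647) and Hspe1 at 0.497 (0.369 to 0.664). Hsp90ab1 was at 0.735 and Hspa8 at 1.09 (0.970 to 1.22). Dnajb1 and Hspa1a, both under 50 UMIs, went the other way. Dnajb1 went from 17 UMIs and 25.0 CPM to 27 UMIs and 51.8 CPM, at a ratio of 2.07 (1.09 to 4.05). Hspa1a went from 4 UMIs and 5.89 CPM to 21 UMIs and 40.3 CPM, at a ratio of 6.84 (2.31 to 27.4). One cell held 7 of these 21 UMIs, and without it the ratio was 4.57. Free RNA of day 7 held 80.9 CPM of Dnajb1 and 48.0 CPM of Hspa1a. Immediate early genes were at 4278 CPM beside 1559 CPM in this class.

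Neutrophil-like cells had the lowest level of all classes at day 7. The sum was 1479.6 CPM (interval 1325 to 1647) beside 3366 CPM in control, a ratio of 0.440 (0.385 to 0.501), and it also lay under the 2636 CPM of free RNA. Hsp90ab1 went from 1944 to 560 CPM (0.288, 0.234 to 0.352), Hspd1 from 158 to 31.1 CPM and Hspe1 from 122 to 26.7 CPM. Hsp90aa1 was at 370 and 298 CPM, with an interval that held 1 (0.574 to 1.13). Of the 3 genes with at least 50 UMIs, 2 were 1.5-fold lower, where 28.6% of 1146 genes were, and 0 were higher, against 37.4%. With fewer UMIs, Dnajb1 was at 27.1 CPM in control and 66.7 CPM at day 7, from 6 and 15 UMIs. Hspa1a was at 9.02 and 31.1 CPM, from 2 and 7 UMIs. Neither had an interval over 1. A UMI of Hsp90ab1 was found in 57.1% of these cells in control and 21.3% at day 7, and in 37.4% and 13.4% after thinning to 300 UMIs. S100a8 and S100a9, the most abundant neutrophil transcripts, took 8.65% of the UMIs of the class in control and 18.4% at day 7. Immediate early genes summed to 3203 CPM in control and 8705 CPM at day 7, beside 8676 CPM in the free RNA of day 7, and ribosomal protein genes took 7.59% and 2.10% of UMIs. The part of these differences in the lower sum was not tested. In cells with at least 400 genes the ratio of the sum was 0.619.

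T cell-like cells at day 7 had 7326 CPM beside 8013 CPM in control (0.914, interval 0.803 to 1.04). Hspa8 was higher, at 2410.0 CPM beside 1538 CPM (1.57, 1.22 to 2.00), and Hsp90aa1 lower, at 764 CPM beside 1231 CPM (0.621, 0.411 to 0.910). One of 5 genes was 1.5-fold higher and 2 were lower, where 25.9% and 15.8% of 495 genes were. Hspa1a, Hspa1b and Hspb1 had 0 UMIs in these 77 cells, which allows up to 71.6 CPM each.

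The lists of partner genes were read over all cells, beside the same backgrounds. At day 1 20.5% of all genes were 1.5-fold higher and 13.6% lower, and at day 7 17.0% and 33.1%. Among 8 Hsp90 co-chaperones, 1 was 1.5-fold lower at day 1 and 0 were higher, with a median ratio of 0.889. The one was Chordc1, a CHORD-domain Hsp90 partner, at 62.2 CPM beside 100.0 CPM in control. Cdc37, which brings kinases to Hsp90, was at 0.776 of control, Ptges3 (p23) at 0.831 and Stip1, the Hsp70 to Hsp90 adaptor, at 0.962. At day 7 Ahsa1, the activator of the Hsp90 ATPase, had the largest ratio of the list, at 1.43, short of 1.5-fold. One gene was 1.5-fold lower at that time, Fkbp5, named for its value, at 0.570 of control, and Cdc37 was at 0.667. Of 13 Hsp70 co-chaperones and exchange factors, Dnajb2 was 1.5-fold higher at day 1 (3.47 times control, from 2.12 CPM) and 0 were lower. Dnaja1 was at 0.776 of control, Hspa4 at 0.819, Bag1 at 0.866 and St13 at 0.875. Of the 13 subunits of the chaperonin TRiC and of prefoldin, which fold actin and tubulin, 0 were higher and 1 was lower, with a median ratio of 0.845. The one was Pfdn4, named for its value, at 0.625 of control, while Cct2 was at 0.709 and Pfdn5 at 0.845.

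Mitochondrial chaperones and proteases had a higher sum over all cells at day 1. Their 8 genes summed to 298 CPM in control and 399 CPM at day 1, a ratio of 1.34 (interval 1.27 to 1.42), with a median of 1.32 and 1 gene past 1.5-fold. That gene was Lonp1, the matrix protease, at 41.3 CPM beside 22.1 CPM. Hspa9, the mitochondrial Hsp70, was at 1.42 and its exchange factor Grpel1 at 1.36 times control. Hepatocyte markers took 0.200% of all UMIs in control and 3.31% at day 1, and hepatocyte-like cells had 768 CPM of this list at day 1. Within classes the ratio of the sum at day 1 was 1.14 (0.889 to 1.49) in hepatocyte-like, 1.12 (0.981 to 1.28) in macrophage-like and 1.16 (0.898 to 1.49) in endothelial-like cells, each with an interval that held 1. Neutrophil-like cells, with 25 UMIs of the list at day 1, were at 2.18 (1.26 to 3.70). The part of the cell mix in the value over all cells was not tested. At day 7 the sum of this list was at 1.06 (0.979 to 1.14), with 1 gene higher and 1 lower. The 12 endoplasmic reticulum chaperones, summed as well, were at 0.787 of control at day 1 and 1.11 at day 7. At day 7 6 of the 12 were 1.5-fold higher and 0 were lower, where 17.0% and 33.1% of all genes were. At day 1 1 was higher and 1 lower, where 20.5% and 13.6% of all genes were. The lower gene was Hspa5, the reticulum Hsp70, at 0.577 of control at day 1 and 1.35 at day 7. Hsp90b1, the reticulum Hsp90, was at 0.702 and 0.785. Dnajb9 was the higher one, at 1.52, and had the largest ratio of the list at day 7, at 1.91. Hsf1, the heat shock factor, was at 9.11 CPM in control, 12.9 CPM at day 1 and 10.1 CPM at day 7. Of the 7 other Hsp70 and small heat shock proteins that were present, Hspb8 had the largest ratio, at 2.88 at day 1, and of the 6 with at least 50 UMIs it and Hspa12b (2.76) were higher and Hspa2 (0.388) was lower. At day 7 Hspb8 had 2 UMIs beside 66 UMIs in control, a ratio of 0.0794 (interval 0.00942 to 0.298), and Cryab was at 0.460. These were the 2 genes of the list lower at that time, and 0 were higher. Hspa12b and Hspa2 are named for their values. Among immediate early genes 0 of 14 were 1.5-fold higher and 6 were lower at day 1, among them Fos, at 0.433 of control. At day 7 12 were higher, led by Ier3 at 13.3 times control, and 1 was lower.

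Likeness of pattern was read over the same 20 points of class and library with at least 50000 UMIs, on log2(CPM + 10). Of 4723 genes with at least 500 UMIs, those closest to Hspa1a plus Hspa1b were Ifi205 (Pearson r of 0.869), Sap30, Cnih4, Timm10b and Scand1. The points share libraries, depth and free RNA, and r is given as a description.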

How the data were processed

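The authors digested liver tissue, captured cells by Drop-seq, aligned reads and deposited unnormalized UMI counts per gene and barcode. The submitters' notes name STAR 2.5.2a and the human build hg19, although the gene symbols are those of mouse; the mouse build is not given in the sources used here. Per the file headers, the Drop-seq tools counted sense reads on coding and untranslated bases. Counts of reads and genes per barcode were also deposited and gave the filter of 200 genes.

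UMIs were summed over cells of a class and library. A cell joined the class with the smallest Poisson tail for its marker UMIs, given the share of those markers in barcodes under 200 genes, at a tail of 1e-04 or less and at least 2 distinct markers. Cd74, H2-Ab1 and Bst2 were left out as broadly expressed. No doublet caller was run. Members, lists and the rule for named genes (all 10 members, up to 4 per list by UMIs plus the largest ratio, and the 5 most alike, of which those for Hspa8 plus Hsp90ab1 are not reported here) were chosen with earlier results of these data known, and the gate and class rules after marker counts and levels had been seen. Genes at 0 were set to a floor of 3 counts. With 1 library per condition no test was made. Alternatives covered barcode filters, denominators, per-cell means, mitochondrial share, deep cells, stricter and looser gates and the class mix. The ratios and their intervals were run on counts simulated from the whole control library, for genes with at least 50 UMIs. That simulation held counting error only, the error the intervals are built for, and no gates, classes or animals. Python 3.11.15, numpy 2.4.6, scipy 1.17.1 and pandas 2.3.3 were used.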

Additional observations from a re-analysis of the deposited data

Results flagged for a closer look

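The summed level of the 10 chaperones went opposite ways in different classes at 7 days p.i. against the same control. Endothelial-like cells were at 1.68 times control (interval 1.49 to 1.89), from 69 cells. The Arg1/Ccl2 myeloid-like class was at 0.798 of control (0.755 to 0.843), and neutrophil-like cells were at 0.440 (0.385 to 0.501). The leading genes of the Arg1/Ccl2 myeloid-like class differed between control and 7 days p.i., and the part of this in its ratio was not tested. With 1 library per condition the difference between classes was not tested.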

How the results depend on the processing

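Over all cells the sum of the 10 genes stayed below control under each alternative run. At 1 day p.i. it was at 0.742 with every deposited barcode, 0.697 with at least 400 genes, 0.731 without mitochondrial genes, 0.731 without mitochondrial, ribosomal protein and hepatocyte marker genes, 0.731 without the 5% of cells with the most UMIs, 0.733 at the class mix of control and 0.697 relative to the median gene. At 7 days p.i. the values in the same order were 0.805, 0.917, 0.707 and 0.667, then 0.752 in cells with at most 20% mitochondrial UMIs, 0.987 at the class mix of control and 0.981 relative to the median gene. The number of genes 2-fold higher at 7 days p.i. became 1 with every barcode and 1 relative to the median gene. The number 1.5-fold lower at 7 days p.i., 2 as reported, was 1 with at least 400 genes, 4 without mitochondrial genes, 6 without the 3 gene sets and 0 at the class mix of control. Classes with a lower sum at 7 days p.i. numbered 5 of 6 without mitochondrial genes and 5 without the 3 gene sets. The other counts stayed within 1.5 times their value.

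Directions turned for Hspa8 at 7 days p.i., to 0.915 and 0.863 under these denominators and 0.982 in cells with at most 20% mitochondrial UMIs. Hsp90aa1 at 7 days p.i. turned to 1.01 as a mean of per-cell CPM, 1.04 at the class mix of control and 1.07 relative to the median gene. The class mix of control, which leaves out every class not read in both libraries, among them the mesenchymal-like cells with 51.5% of the control UMIs of Hspb1, also turned Hspb1, to 1.01 and 1.19 at the 2 times, and Hsph1 at 7 days p.i., to 1.05, while Hspe1 at 7 days p.i. was at 1.00 with at least 400 genes. Neutrophil-like cells at 1 day p.i. were at 1.11 with every barcode. The cause was not tested, beyond what each denominator or filter does by construction. Hsp90aa1 at 1 day p.i. kept its direction under each alternative run. The alternative relative to the median gene, a gate tail of 0.001 and the counts of lower genes and classes were added after the data had been seen.

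With 1 library per condition, leaving out a replicate was not possible. No paired analysis was possible because each condition had a single library and no replicate number joins them. Depth limits Hspa1a, Hspa1b, Hspb1 and Dnajb1 within classes, where a few UMIs decide a ratio.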
